A study of Homo sapiens with 24 samples.

Results

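The mRNA of 10 plasma membrane amino acid transporters, out of 23368 genes counted, was followed after 24 h with kinase inhibitors in AGS, a long-established cell line from a human gastric adenocarcinoma. The genes were given by name (SLC3A2, SLC7A5, SLC7A11, SLC7A1, SLC1A4, SLC1A5, SLC38A1, SLC38A2, SLC6A9 and SLC43A1), and all 10 were kept whatever their values. The set itself was chosen with earlier results of these data known. All 10 genes passed the filter on low counts. Levels are given as CPM, counts-per-million after scaling of library sizes. The 6 groups, each of 4 libraries that the labels call biological replicates, were control cells with no inhibitor, 0.7 µM PI103 (which blocks class I PI3 kinases and mTOR), 0.035 µM PD0325901 (which blocks MEK), 0.5 µM (5Z)-7-oxozeaenol (which blocks TAK1, oxozeaenol below), PI103 with oxozeaenol (0.35 µM and 0.25 µM), and PI103 with PD0325901 (0.35 µM and 0.0175 µM). All cells are labelled wild type and belong to a single line. The combinations thus held 50% of each agent's own concentration, and whether control cells received vehicle is not given in the labels. Read counts assigned to genes ran from 38.1 to 84.2 M per library. All 6 epithelial markers looked at were present in all 24 libraries, among them EPCAM (620 to 988 CPM), KRT8 (2115 to 3587 CPM) and, lowest, CDH1 (11.6 to 22.7 CPM). So were CDX2 (68.4 to 119 CPM), VIL1 (173 to 248 CPM) and TFF1 (3.72 to 17.5 CPM) of a list of gastric or intestinal mucosa markers. GKN1 and MUC6 of that list were at 0 in 24 and 22 libraries, and its MUC5AC was not among the genes counted. Leukocyte and endothelial markers reached at most 0.182 CPM. Of 4 fibroblast markers COL1A2 was at 0 in 21 libraries, PDGFRB reached 0.308 CPM, COL3A1 reached 1.10 CPM and COL1A1 ran from 7.93 to 34.2 CPM. The summed level of these 4 was 14.2 to 17.3 CPM in control, 32.3 to 34.4 for PI103, 17.9 to 22.1 for PD0325901, 8.06 to 9.90 for oxozeaenol, 9.22 to 11.04 for its combination with PI103, and 21.8 to 25.8 for the PD0325901 combination. This level moved with the groups, and its part in the results was not tested.

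Amino acids enter cells through several families of carriers. SLC3A2 (CD98 heavy chain) is a glycoprotein that brings light chains to the cell surface, among them SLC7A5 (LAT1), which exchanges large neutral amino acids such as leucine, and SLC7A11 (xCT), which takes up cystine in exchange for glutamate. SLC7A1 (CAT1) carries arginine and lysine, SLC1A5 (ASCT2) and SLC1A4 (ASCT1) exchange small neutral amino acids, glutamine among the substrates of SLC1A5, SLC38A1 (SNAT1) and SLC38A2 (SNAT2) bring in glutamine and alanine with sodium, SLC6A9 (GLYT1) takes up glycine, and SLC43A1 (LAT3) lets branched-chain amino acids pass by facilitated diffusion. Many of these genes are known targets of ATF4, the transcription factor of the amino acid response, which binds C/EBP-ATF response elements; MYC is known to act on SLC7A5 and SLC1A5, and NFE2L2 on SLC7A11.

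Promoter sequence is shown because the members fell together, as given below. RefSeq windows from 250 bases before to 50 bases after a transcription start were found for 9 of the 10 genes (16 windows, GRCh38.p14), SLC7A11 having none in the table used. The core of the C/EBP-ATF element, TGATGNAA on either strand, was present in 5 of the 9 genes, against 4.46% of all 27305 genes with such windows. By window it was present in 5 of the 16, against 3.62% of 35116 windows. The sequences below are written 5′ to 3′ on the strand of the gene, with the match in capitals; in SLC1A4 and SLC3A2 the match reads in reverse complement.
SLC1A4: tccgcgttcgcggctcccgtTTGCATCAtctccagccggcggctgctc
SLC3A2: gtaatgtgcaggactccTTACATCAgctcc
SLC38A1: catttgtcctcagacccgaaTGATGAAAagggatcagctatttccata
SLC7A1: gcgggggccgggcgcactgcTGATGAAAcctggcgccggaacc
SLC1A5: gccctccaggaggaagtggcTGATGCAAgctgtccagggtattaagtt
The stretches lie at chr2:64989372-64989419 (plus strand), chr11:62881719-62881748 (plus), chr12:46266493-46266540 (minus), chr13:29595659-29595701 (minus) and chr19:46784884-46784931 (minus). In GENCODE 29 the SLC1A4 and SLC38A1 matches fall in an intron of the gene, at the start of a further RefSeq transcript, those of SLC3A2 and SLC7A1 fall in an exon, and that of SLC1A5 crosses an exon edge. Another word, the E-box CACGTG, the core site of MYC and other factors, was present in 3 of the 9 genes, against 8.77% of all genes.
SLC7A5: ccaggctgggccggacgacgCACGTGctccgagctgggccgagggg
SLC43A1: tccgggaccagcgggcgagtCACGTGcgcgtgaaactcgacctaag
SLC1A5: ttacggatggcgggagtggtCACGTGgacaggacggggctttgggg
These lie on the minus strand at chr16:87869612-87869657 and chr11:57515789-57515834, both upstream of the annotated gene, and at chr19:46787318-46787363, across an exon edge. The AP-1 word TGANTCA was present in SLC3A2 and SLC38A1, 2 of the 9 genes, against 9.37% of all genes. The words do not overlap one another in these windows. A match describes the letters only; binding was not measured.

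In control cells the level per length, in RPKM on GENCODE 29 exon lengths, was highest for SLC1A5 (341 RPKM), followed by SLC7A5 (210), SLC38A2 (118), SLC3A2 (109), SLC7A1 (69.6), SLC38A1 (46.3), SLC7A11 (38.7), SLC6A9 (13.2), SLC1A4 (11.96) and SLC43A1 (2.40). SLC38A2 and SLC3A2 exchanged places among the 4 control libraries, as did SLC6A9 and SLC1A4, so neither pair was ordered beyond its spread. SLC1A5 ranked first and SLC43A1 last in all 24 libraries. SLC7A11 moved from rank 7 in control to rank 8 or 9 with PI103 (0.738 RPKM) and rank 9 with PI103 and PD0325901 (0.574 RPKM). SLC6A9 ranked 7 in that combination (2.02 RPKM).

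All 10 transporters fell with all 5 treatments. Against control, 10 of 10 were called lower (adjusted p under 0.05 in edgeR's quasi-likelihood test over 13947 genes) after PI103, where 25.2% of all genes were called lower, after PD0325901 (29.9%), after oxozeaenol (26.1%), in the oxozeaenol combination (27.9%) and in the PD0325901 combination (32.6%). In none of these 50 comparisons did a treated library reach the lowest control library, a separation seen in 24.0%, 24.9%, 22.0%, 26.8% and 28.9% of all genes. It follows from this separation that each gene was lower in 4 of 4 batches, as the labels call the replicate numbers. The median log2 fold change over the 10 was -2.12 for PI103 (all genes 0.02), -1.21 for PD0325901 (-0.02), -0.98 for oxozeaenol (0.02), -1.71 for the oxozeaenol combination (0.02) and -2.47 for the PD0325901 combination (0.01). The 5 comparisons share the control libraries. As the members were chosen with earlier results of these data known, their counts beside the shares of all genes are a description. Counts measure shares of the mRNA pool of a whole culture, so less RNA per cell and fewer cells expressing a gene cannot be told apart.

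The summed level of the 10 genes was 5002 ± 147 CPM (mean ± SD, n = 4) in control. It was 1287 ± 74.3 CPM for PI103 (25.7% of control), 2083 ± 414 for PD0325901 (41.6%), 2402 ± 414 for oxozeaenol (48.0%), 1597 ± 257 for the oxozeaenol combination (31.9%) and 1062 ± 94.5 for the PD0325901 combination (21.2%). The libraries of a group were not equally spread: all 10 genes lay above their group mean in PD0325901 replicate 1, in oxozeaenol replicates 1 and 2, and in replicate 2 of PI103 with oxozeaenol. The last of these stood furthest apart, by 0.53 log2 units on average, and results that rest on it are given with and without it.

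**Figure D1:**
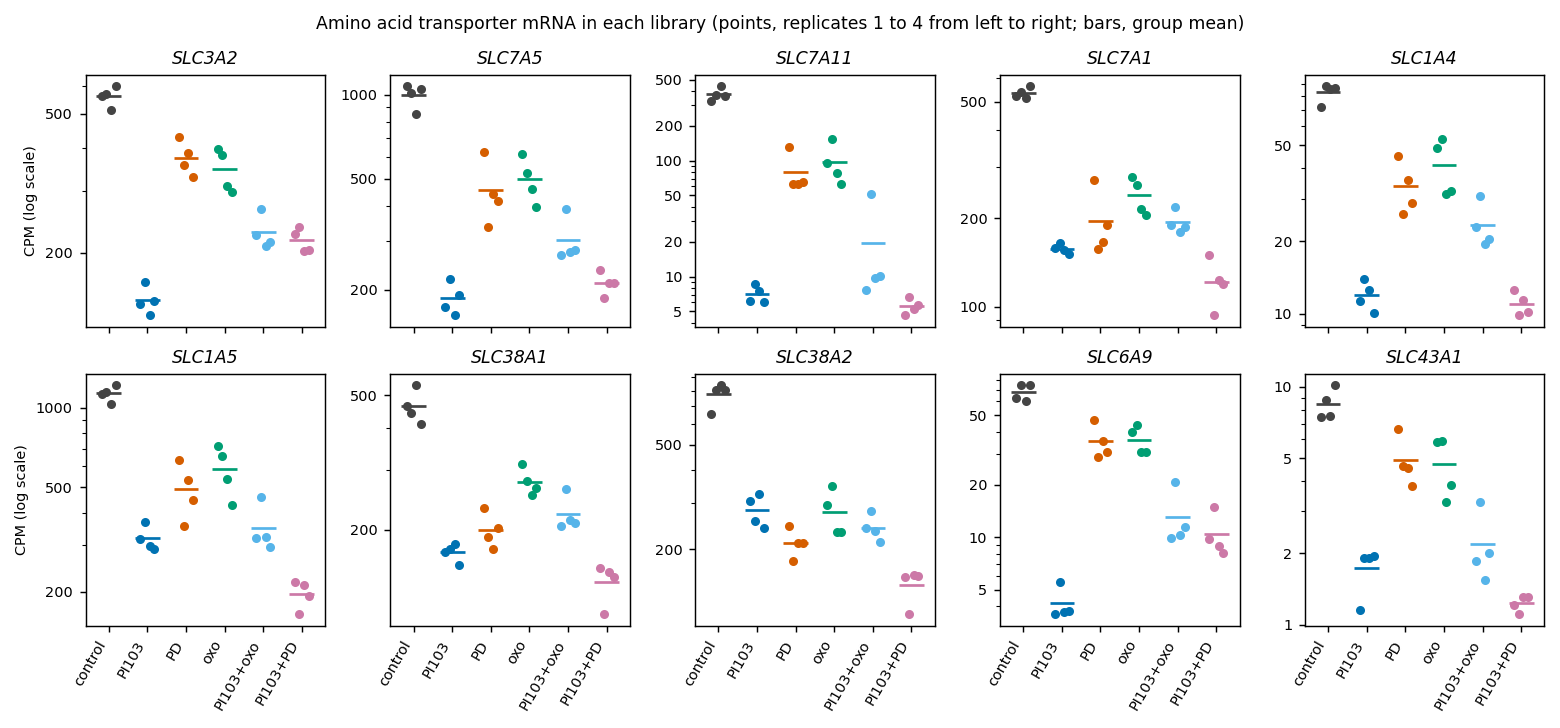
Level of each transporter in CPM (log axis, scaled per panel) in the 24 libraries, with the 4 replicates of a group from left to right as points and the group mean as a bar (PD, PD0325901; oxo, oxozeaenol). Every treated library lies below the control libraries of the same gene, and SLC7A11 in replicate 2 of PI103 with oxozeaenol (51.3 CPM) lies apart from its group.

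SLC3A2, the shared heavy chain, was at 561, 571, 514 and 601 CPM in control replicates 1 to 4 and at 143, 165, 133 and 146 CPM with PI103. With PD0325901 it was at 429, 356, 386 and 329 CPM and with oxozeaenol at 396, 382, 310 and 299 CPM, so these groups overlapped each other while lying between control and PI103. PI103 with oxozeaenol gave 225, 268, 209 and 215 CPM, and PI103 with PD0325901 gave 227, 236, 202 and 204 CPM. The log2 fold change against control was -1.94 ± 0.11 (SE, adjusted p = 5.49e-13) with PI103, -0.58 ± 0.11 (adjusted p = 3.48e-05) with PD0325901 and -0.70 ± 0.11 (adjusted p = 4.81e-06) with oxozeaenol. It was -1.29 in the oxozeaenol combination and -1.37 in the PD0325901 combination. The PD0325901 value was the smallest change of any of the 10 genes with any treatment.

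SLC7A5, the leucine exchanger, was at 1073, 1016, 850 and 1044 CPM in control and at 173, 219, 162 and 191 CPM with PI103. It was at 623, 335, 442 and 415 CPM with PD0325901 and at 614, 522, 458 and 396 CPM with oxozeaenol, and again these groups overlapped. The combinations gave 267, 388, 273 and 277 CPM (with oxozeaenol) and 236, 187, 211 and 211 CPM (with PD0325901), the latter within the range of PI103 alone except for replicate 1. The log2 fold change was -2.42 ± 0.17 (adjusted p = 1.85e-11) with PI103, which left 18.7% of the control level, -1.13 ± 0.16 with PD0325901 and -1.0 ± 0.16 with oxozeaenol. An unprocessed and a processed copy of the gene, SLC7A5P1 and SLC7A5P2, held 23 to 160 and 34 to 180 counts per library, and reads shared with them may have been left uncounted.

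SLC7A11, the cystine carrier, had the largest fall of the 10 in every treatment. It was at 328, 367, 440 and 360 CPM in control and at 6.17, 8.65, 7.54 and 6.09 CPM with PI103, a log2 fold change of -5.72 ± 0.55 (adjusted p = 4.29e-08) that left 1.90% of the control level. With PD0325901 it was at 131, 62.4, 62.9 and 65.6 CPM (-2.22 ± 0.46, adjusted p = 0.000353), and with oxozeaenol at 95.8, 153, 78.3 and 62.7 CPM (-1.94 ± 0.46, adjusted p = 0.00146). PI103 with PD0325901 gave 4.66, 6.62, 5.22 and 5.64 CPM, a log2 fold change of -6.08 ± 0.56, with a range that overlapped that of PI103 alone. PI103 with oxozeaenol gave 7.62, 51.3, 9.71 and 10.0 CPM. That group's log2 fold change was -4.25 with replicate 2 and -5.36 without it.

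SLC7A1, the arginine and lysine carrier, was at 524, 540, 514 and 565 CPM in control. PI103 brought it to 158, 165, 156 and 152 CPM (-1.76 ± 0.14, adjusted p = 1.84e-10), PD0325901 to 271, 157, 166 and 190 CPM (-1.45 ± 0.14) and oxozeaenol to 277, 261, 216 and 205 CPM (-1.16 ± 0.14). The PI103 and PD0325901 groups thus overlapped, unlike those of SLC3A2 or SLC7A5. The lowest levels were in PI103 with PD0325901, at 150, 93.8, 124 and 120 CPM (-2.14 ± 0.14), all below PI103 alone, while PI103 with oxozeaenol gave 190, 219, 180 and 187 CPM (-1.47 ± 0.14).

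SLC1A5, the glutamine exchanger, was at 1131, 1153, 1039 and 1222 CPM in control and at 317, 370, 298 and 291 CPM with PI103 (-1.83 ± 0.17, adjusted p = 2.15e-09). It was at 633, 354, 534 and 447 CPM with PD0325901 (-1.21 ± 0.16) and at 714, 658, 535 and 429 CPM with oxozeaenol (-0.96 ± 0.16). PI103 with PD0325901 brought it to 217, 164, 212 and 192 CPM (-2.53 ± 0.17), below every other group, and PI103 with oxozeaenol to 321, 458, 322 and 297 CPM. Its relative SLC1A4 was less abundant, at 71.99, 88.0, 85.8 and 86.4 CPM in control, and fell further with PI103, to 11.3, 13.9, 12.5 and 10.0 CPM (-2.80 ± 0.19, adjusted p = 2.60e-11). SLC1A4 was at 44.9, 25.8, 35.8 and 28.8 CPM with PD0325901 (-1.30 ± 0.18) and at 48.9, 53.1, 31.4 and 32.2 CPM with oxozeaenol (-1.0 ± 0.18), overlapping ranges. In PI103 with PD0325901 it was at 12.5, 9.86, 11.4 and 10.1 CPM, overlapping PI103 alone, and in PI103 with oxozeaenol at 22.9, 30.8, 19.4 and 20.4 CPM, all above PI103 alone. In the annotation 23.4% of the SLC1A5 exon length overlaps the antisense gene AC008622.2, 8.97% of that of SLC7A11 overlaps SLC7A11-AS1, 7.83% of that of SLC6A9 overlaps CCDC24 and 5.71% of that of SLC7A5 overlaps AC126696.2; whether counting used strand is not given in the sources used here, so these counts may hold reads of the partner.

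The sodium-coupled carriers SLC38A1 and SLC38A2 lie beside each other on chromosome 12 (46183063 to 46270017 and 46358189 to 46372867, minus strand, GRCh38). SLC38A1 was at 464, 443, 536 and 410 CPM in control, at 171, 176, 181 and 157 CPM with PI103 (-1.44 ± 0.11), at 231, 190, 175 and 202 CPM with PD0325901 (-1.22 ± 0.11) and at 313, 278, 253 and 265 CPM with oxozeaenol (-0.74 ± 0.11). SLC38A2 was at 653, 806, 842 and 806 CPM in control, at 306, 257, 324 and 241 CPM with PI103 (-1.46 ± 0.14), at 246, 180, 212 and 211 CPM with PD0325901 (-1.87 ± 0.14, adjusted p = 3.02e-11) and at 296, 347, 233 and 232 CPM with oxozeaenol (-1.49 ± 0.14). SLC38A2 was the only member with a larger fold change for PD0325901 than for PI103. In PI103 with PD0325901, SLC38A1 was at 154, 112, 150 and 144 CPM and SLC38A2 at 156, 113, 159 and 159 CPM, with replicate 2 lowest for both and all 4 libraries below each single agent. In PI103 with oxozeaenol they were at 206, 263, 214 and 209 CPM and at 242, 280, 234 and 213 CPM.

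SLC6A9, the glycine carrier, was at 62.6, 74.6, 60.3 and 74.1 CPM in control and at 3.61, 5.55, 3.72 and 3.76 CPM with PI103, a fall exceeded with that agent only by SLC7A11 (-4.03 ± 0.24, adjusted p = 6.97e-12, 6.12% of control left). PD0325901 gave 47.2, 28.9, 35.4 and 30.8 CPM (-0.93 ± 0.21) and oxozeaenol 40.0, 43.8, 30.9 and 30.6 CPM (-0.90 ± 0.21). Both combinations lay above PI103 alone without overlap, at 9.82, 20.6, 10.3 and 11.4 CPM with oxozeaenol and at 9.79, 14.9, 8.91 and 8.10 CPM with PD0325901. SLC43A1, the least abundant of the 10, was at 7.43, 8.79, 7.56 and 10.2 CPM in control, at 1.15, 1.91, 1.90 and 1.94 CPM with PI103 (-2.30 ± 0.23), at 6.62, 4.64, 4.57 and 3.83 CPM with PD0325901 (-0.79 ± 0.21) and at 5.88, 5.90, 3.29 and 3.88 CPM with oxozeaenol (-0.83 ± 0.21). It was at 1.86, 3.29, 1.55 and 2.01 CPM with PI103 and oxozeaenol and at 1.21, 1.11, 1.30 and 1.31 CPM with PI103 and PD0325901.

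**Figure D2:**
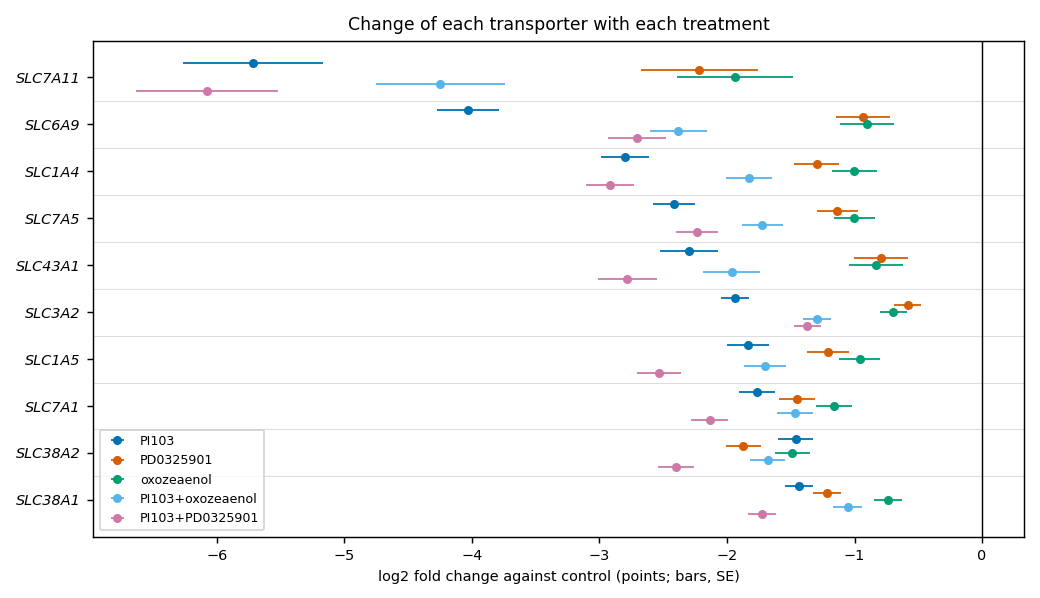
Log2 fold change of each transporter against control (points) with its SE (bars) for the 5 treatments, genes ordered by the PI103 value. All points lie left of 0; SLC7A11 and SLC6A9 fell furthest with PI103 (-5.72 and -4.03), and SLC38A2 is the gene for which PD0325901 (-1.87) exceeds PI103 (-1.46).

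The single agents were then set against each other. With PI103, 7 of 10 members were lower than with PD0325901 (22.9% of all genes were) and 1 was higher (21.7%). The 7 were SLC6A9 (-3.10 ± 0.24), SLC7A11 (-3.50 ± 0.50), SLC43A1 (-1.51 ± 0.23), SLC1A4 (-1.50 ± 0.18), SLC3A2 (-1.36 ± 0.11), SLC7A5 (-1.28 ± 0.16) and SLC1A5 (-0.63 ± 0.16), 6 of them without overlap between groups, against 20.1% of all genes. SLC38A2 was higher with PI103 by 0.41 ± 0.14 (adjusted p = 0.016), a call lost without PI103 replicate 3 (0.33, adjusted p = 0.0681) or without PD0325901 replicate 2 (0.31, adjusted p = 0.0968). The differences of SLC7A1 (-0.31, 95% interval -0.60 to -0.03, adjusted p = 0.0666) and SLC38A1 (-0.22, -0.44 to 0.00, adjusted p = 0.104) did not pass the test. SLC7A1 passed it without PD0325901 replicate 2 (-0.44, adjusted p = 0.0132) or replicate 3 (-0.38, adjusted p = 0.0373). Against oxozeaenol, 9 of 10 members were lower with PI103, and all 9 without overlap (22.5% of all genes were called lower and 18.4% were lower without overlap). The exception was SLC38A2, whose difference was 0.02 with a 95% interval of -0.25 to 0.30. Between PD0325901 and oxozeaenol, 2 of 10 members were lower with PD0325901, against 13.4% of all genes. These were SLC38A1 (-0.47 ± 0.11, adjusted p = 0.00224) and SLC38A2 (-0.39 ± 0.14, adjusted p = 0.0349). The SLC38A2 call was lost in 5 of 8 fits that left out a library, with -0.26 (adjusted p = 0.157) without oxozeaenol replicate 2 and -0.29 (adjusted p = 0.174) without PD0325901 replicate 2. For SLC3A2 that difference was 0.11 with an interval of -0.10 to 0.33, and for SLC6A9 it was -0.03 with an interval of -0.47 to 0.41.

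Each combination was compared with its single agents, which were given at their full concentration, so the doses differ. PI103 with oxozeaenol left 6 of 10 members higher than PI103 alone by the test (9.39% of all genes were called higher). Called or not, 6 of 10 members lay above PI103 alone without overlap (14.4% of all genes). These were 5 of the 6 called, all but SLC7A11, and SLC7A1, which was not called (0.30). The 6 called were SLC6A9 (1.65 ± 0.23, adjusted p = 1.58e-05), SLC7A11 (1.47 ± 0.47, adjusted p = 0.0358), SLC1A4 (0.97 ± 0.18), SLC7A5 (0.69 ± 0.16), SLC3A2 (0.65 ± 0.11) and SLC38A1 (0.38 ± 0.11, adjusted p = 0.0151). Without replicate 2 of the combination 4 of the 6 calls remained: SLC7A11 was at 0.36 (adjusted p = 0.4) and SLC38A1 at 0.29 (adjusted p = 0.0816), while SLC6A9 was at 1.34, SLC1A4 at 0.81, SLC3A2 at 0.56 and SLC7A5 at 0.55. The SLC7A11 call was also lost without each of the 4 PI103 libraries (1.40 to 1.58, adjusted p = 0.0552 to 0.0876) and with the replicate number as a block (1.24, adjusted p = 0.0506), and the SLC38A1 call without PI103 replicate 4 (0.34, adjusted p = 0.0513). SLC1A5 and SLC38A2 did not pass the test against PI103 alone, with 0.13 (interval -0.20 to 0.47) and -0.22 (-0.50 to 0.06). Against oxozeaenol alone, 7 of 10 members were lower in this combination (7.28% of all genes), led by SLC7A11 (-2.31 ± 0.47 with replicate 2 and -3.43 without it), SLC6A9 (-1.48 ± 0.22) and SLC43A1 (-1.13 ± 0.22). SLC38A1 missed the threshold at -0.31 ± 0.11 (adjusted p = 0.0515) and passed it with the replicate number as a block (-0.31, adjusted p = 0.0365) and without replicate 2 of the combination (-0.41, adjusted p = 0.0179).

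PI103 with PD0325901 was lower than PD0325901 alone for 10 of 10 members (10.0% of all genes), without overlap for all 10 (8.36% of all genes), from -0.51 for SLC38A1 to -3.86 for SLC7A11. Against PI103 alone the members parted. SLC3A2 (0.57 ± 0.11, adjusted p = 0.000142) and SLC6A9 (1.33 ± 0.23, adjusted p = 9.38e-05) were higher in the combination, 2 of 10 where 18.8% of all genes were called higher. SLC38A2 (-0.94 ± 0.14, adjusted p = 6.72e-06), SLC1A5 (-0.70 ± 0.16, adjusted p = 0.0014), SLC7A1 (-0.37 ± 0.14, adjusted p = 0.0351) and SLC38A1 (-0.29 ± 0.11, adjusted p = 0.0373) were lower, 4 of 10 where 19.9% of all genes were. The last 2 calls were lost in 6 and 5 of 8 fits that left out a library, furthest without replicate 2 of the combination (-0.26 for SLC7A1, adjusted p = 0.156; -0.20 for SLC38A1, adjusted p = 0.179). SLC7A5, SLC7A11, SLC1A4 and SLC43A1 did not pass the test, with 0.18, -0.36, -0.12 and -0.48. Without PI103 replicate 1 SLC43A1 passed it (-0.64, adjusted p = 0.0442).

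A combination at 50% of each agent would give the mean of its agents' log2 effects if these were linear in concentration and added up. No agent was given alone at 50%, so a departure cannot tell a bent dose curve from effects that do not add up. The mean served as a reference. For PI103 with oxozeaenol, 0 of 10 members departed from it by edgeR's test (3.98% of all genes did in either direction), 1 of them, SLC1A5 (-0.30, interval -0.60 to -0.01), having an unadjusted p under 0.05 (0.0414). DESeq2 also called 0. Differences ran from -0.42 for SLC7A11 to 0.08 for SLC6A9. Without replicate 2 of the combination SLC7A11 was below the mean by the test (-1.54, adjusted p = 0.000626), 1 member of 10. For PI103 with PD0325901, 8 of 10 members were below the mean (11.1% of all genes): SLC7A11 (-2.11 ± 0.45), SLC43A1 (-1.24 ± 0.21), SLC1A5 (-1.01 ± 0.15), SLC1A4 (-0.87 ± 0.16), SLC38A2 (-0.74 ± 0.12), SLC7A1 (-0.53 ± 0.12), SLC7A5 (-0.46 ± 0.14) and SLC38A1 (-0.40 ± 0.10). Of these, SLC7A11, SLC43A1, SLC1A4 and SLC7A5 did not pass the test against PI103 alone. The SLC7A5 call against the mean was lost without replicate 2 of the combination (-0.41, adjusted p = 0.0896). SLC3A2 (-0.11, interval -0.30 to 0.08) and SLC6A9 (-0.22, -0.62 to 0.18) were the members not called. The combinations share the PI103 libraries, and the difference between them in this measure was not tested.

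**Figure D3:**
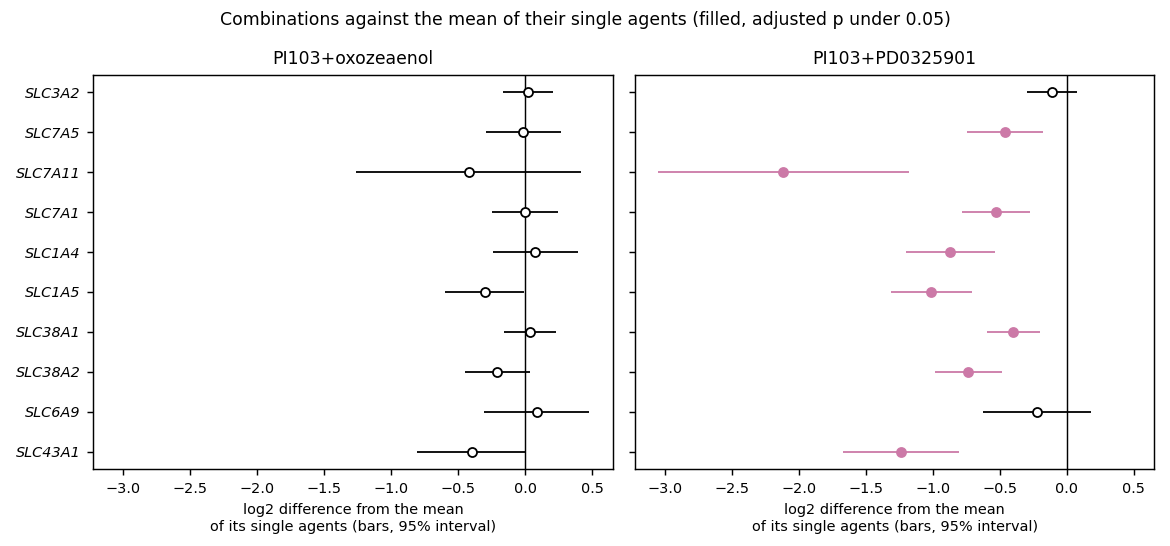
Difference of each combination from the mean of the log2 effects of its single agents (points, with 95% intervals; filled, adjusted p under 0.05). With oxozeaenol no point is filled; with PD0325901 all 10 lie below 0 and 8 are filled, the open points being SLC3A2 (-0.11) and SLC6A9 (-0.22).

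Because partners and relatives fell by different amounts, ratios of read counts within a library were compared, for 4 pairs chosen after their values were seen. As the pairs were picked for their values, the ratios are a description with no test. Counts are not per length, so the ratios are set side by side between groups only. The ratio of SLC7A5 to SLC3A2 was 1.77 ± 0.108 (SD, n = 4) in control and 1.27 ± 0.0571 for PI103, 1.20 ± 0.214 for PD0325901, 1.43 ± 0.102 for oxozeaenol, 1.31 ± 0.106 for its combination and 0.978 ± 0.126 for the PD0325901 combination. None of the 20 treated libraries reached the lowest control library (1.66), and the highest treated one was at 1.55. The ratio of SLC7A11 to SLC3A2 was 0.670 ± 0.126 in control and 0.0486 ± 0.00728 for PI103, 0.211 ± 0.0646 for PD0325901, 0.276 ± 0.0853 for oxozeaenol and 0.0255 ± 0.00345 for the PD0325901 combination. For the oxozeaenol combination it was 0.0796 ± 0.0748, of which replicate 2 alone was at 0.191, and 0.0423 ± 0.00727 (n = 3) without that library, so whether its mean lies above or below that of PI103 depends on replicate 2. The ratio of SLC1A4 to SLC1A5 was 0.0733 ± 0.00806 in control, 0.0374 ± 0.00338 with PI103 and 0.0561 ± 0.00343 with PI103 and PD0325901, neither overlapping control. It overlapped control at 0.0688 ± 0.00370 with PD0325901, 0.0707 ± 0.00950 with oxozeaenol and 0.0670 ± 0.00465 with PI103 and oxozeaenol. The ratio of SLC38A2 to SLC38A1 was 1.69 ± 0.249 in control and 1.64 ± 0.171 with PI103, which overlapped. It was 1.07 ± 0.110 for PD0325901, 0.998 ± 0.170 for oxozeaenol, 1.09 ± 0.0667 for its combination and 1.05 ± 0.0422 for the PD0325901 combination, each below all 4 control libraries.

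**Figure D4:**
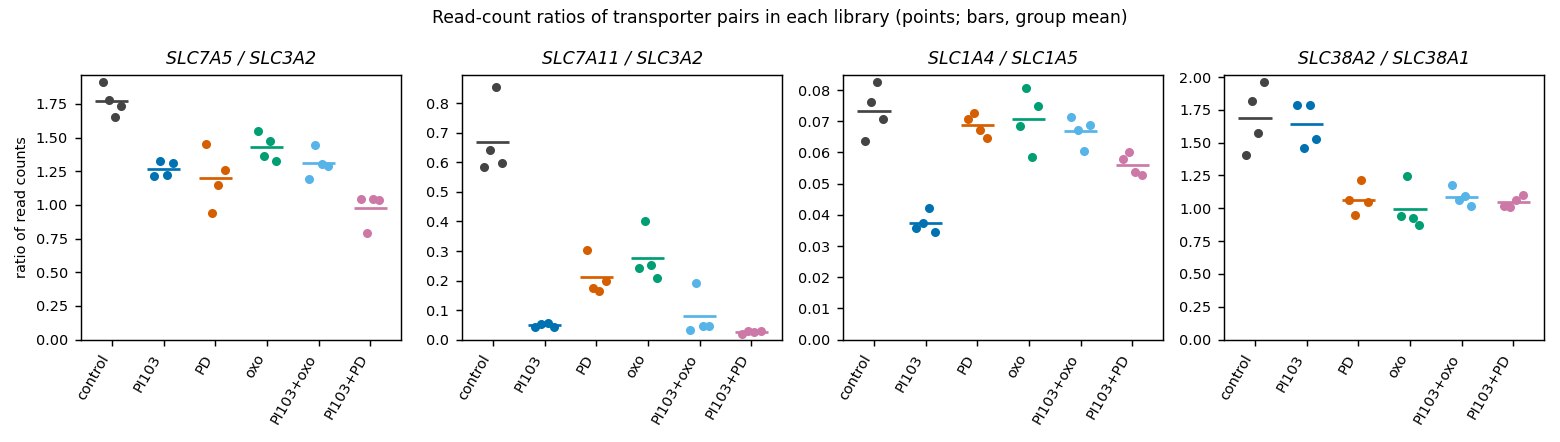
Ratio of read counts of 4 transporter pairs in each of the 24 libraries (points; bars, group mean; axes start at 0). SLC1A4 to SLC1A5 is lowest with PI103 (0.0374), whereas SLC38A2 to SLC38A1 stays near the control value (1.69) with PI103 (1.64) and lies near 1.07 with PD0325901.

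Factors known to act on these genes were also lower. ATF4 mRNA was at 791 ± 62.2 CPM (SD, n = 4) in control and changed by -1.19 log2 units for PI103, -0.69 for PD0325901, -0.46 for oxozeaenol, -0.99 for its combination and -1.46 for the PD0325901 combination, all called. MYC, at 293 ± 34.3 CPM in control, had its largest fall with PD0325901 (-1.71 ± 0.12) and changed by -1.03 ± 0.12 with PI103 and -1.29 ± 0.12 with oxozeaenol. Its level was 144 ± 10.7 CPM with PI103, 89.5 ± 15.6 with PD0325901 and 119 ± 14.2 with oxozeaenol. In the combinations it was 156 ± 8.66 CPM with oxozeaenol and 112 ± 12.8 with PD0325901, each mean above that of the second agent alone. NFE2L2, at 240 ± 11.5 CPM in control, changed by -0.97 (oxozeaenol) to -1.10 (PD0325901 combination) in the 5 treatments. ATF4 is regulated largely at translation and NFE2L2 by protein turnover, which mRNA counts do not report.

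Genes of related function were described from lists, which like the members were chosen with earlier results of these data known. Genes are named with the single agents for which they had 1 of the 2 largest called rises or falls of their list. An agent not named with a gene may have moved it too. Of 30 other plasma membrane amino acid carriers, 13 were abundant enough to be tested, and 0 to 3 of them were called lower in a treatment: 3 were called higher and 0 lower for PI103, 5 and 3 for PD0325901, 6 and 2 for oxozeaenol, 7 and 1 for its combination and 6 and 3 for the PD0325901 combination (26.2%, 28.7%, 25.7%, 27.7% and 32.2% of all genes were called higher, and 25.2%, 29.9%, 26.1%, 27.9% and 32.6% lower), with medians of 0.20, -0.06, 0.38, 0.37 and 0.65. SLC7A8 (LAT2), a further light chain of SLC3A2, rose in all 5, from 8.67 ± 0.676 CPM (SD, n = 4) in control to 15.4 ± 1.97 with PI103 (0.83 ± 0.10), 26.0 ± 2.70 with PD0325901 (1.59 ± 0.10) and 22.6 ± 1.17 with oxozeaenol (1.38 ± 0.10). SLC7A7 (y+LAT1), another light chain, rose from 243 ± 9.61 CPM in control to 538 ± 85.4 with PD0325901 (1.15 ± 0.10), and was at 229 ± 14.5 CPM with PI103. SLC1A3, a glutamate carrier related to SLC1A4 and SLC1A5, rose from 72.7 ± 7.82 to 191 ± 9.21 CPM with oxozeaenol (1.39 ± 0.08) and SLC36A1 from 11.3 ± 0.962 to 14.4 ± 1.19 CPM with PI103 (0.34 ± 0.11). SLC7A2 (CAT2), the relative of SLC7A1, fell from 5.59 ± 1.96 to 1.51 ± 0.427 CPM with PD0325901 (-1.89 ± 0.30), as did SLC43A2 (LAT4, -0.34 ± 0.13), whose call was lost without 4 of the 8 libraries. Among 16 tested carriers of the lysosome and other organelles 4 were higher and 4 lower with PI103, 8 and 8 with PD0325901 and 5 and 3 with oxozeaenol. The shares of all genes were 26.2% higher and 25.2% lower with PI103, 28.7% and 29.9% with PD0325901 and 25.7% and 26.1% with oxozeaenol. SFXN3, a mitochondrial serine carrier family member, rose with PI103 (0.82) and PD0325901 (0.61), and SLC38A7 with PI103 (0.40). Mean SLC38A7 was 9.56 CPM in control, 12.6 with PI103, 14.1 with PD0325901 and 10.7 with oxozeaenol. SLC38A6 rose with PD0325901 (0.67) and oxozeaenol (0.61), and PQLC2, the lysosomal exporter of cationic amino acids, with oxozeaenol (0.60). The mitochondrial aspartate-glutamate carrier SLC25A12 fell with PD0325901 (-2.22) and oxozeaenol (-1.45), MFSD12, which brings cysteine into lysosomes, with all 3 single agents (-0.59, -1.08 and -0.91) and the glycine carrier SLC25A38 with PI103 (-0.81).

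Of 31 tested genes known as ATF4 targets 28 were called lower and 0 higher with PI103, 27 and 1 with PD0325901, 27 and 1 with oxozeaenol and 28 and 0 with each combination, with medians of -3.21, -1.56, -1.49, -2.69 and -3.17. In the same order 25.2%, 29.9%, 26.1%, 27.9% and 32.6% of all genes were called lower. As the list was chosen with earlier results known, these counts are a description. TRIB3, a pseudokinase, fell with PD0325901 (-4.43 ± 0.53) and oxozeaenol (-4.83 ± 0.54), and DDIT4, an inhibitor of mTORC1 signalling, with oxozeaenol (-2.90 ± 0.66). Both were lowest with PI103. Mean TRIB3 was 31.1 CPM in control, 0.0728 with PI103, 1.46 with PD0325901 and 1.01 with oxozeaenol. Mean DDIT4 was 668 CPM in control, 3.11 with PI103, 162 with PD0325901 and 89.3 with oxozeaenol. INHBE was at 57.7 ± 7.41 CPM in control, 7.52 ± 6.18 with PD0325901 (-2.95 ± 0.74) and 0.0162 to 0.0520 with PI103, and FGF21 was at 11.1 ± 3.61 CPM in control and 0 to 0.0307 with PI103; no fold is given where counts were this few. The gene that rose, with PD0325901 (0.78 ± 0.21) and oxozeaenol (1.10 ± 0.21), was CBS, an enzyme of cysteine synthesis. Of 27 tested genes of amino acid sensing by mTORC1 and GCN2, 9 were higher and 6 lower with PI103, 10 and 6 with PD0325901 and 11 and 5 with oxozeaenol. Among all genes 26.2% were called higher and 25.2% lower with PI103, 28.7% and 29.9% with PD0325901 and 25.7% and 26.1% with oxozeaenol. GATSL3, an arginine sensor, rose with all 3 (1.10, 2.17 and 1.18), TSC1 with PI103 (0.76), SESN1 with PD0325901 (0.92) and FNIP1 with oxozeaenol (0.65). EIF2S1, the translation factor that GCN2 phosphorylates, fell with PI103 (-0.87) and PD0325901 (-0.73), and SEH1L with PI103 (-0.41). MIOS fell with PD0325901 (-1.08) and oxozeaenol (-0.64), and NPRL3 with oxozeaenol (-0.57). Mean FNIP1 was 28.9 CPM in control, 40.9 with PI103, 42.1 with PD0325901 and 45.3 with oxozeaenol. Mean SEH1L was 170 CPM in control, 128 with PI103, 117 with PD0325901 and 162 with oxozeaenol. Of 12 genes of glutathione and cystine use, which act beside SLC7A11, 1 was higher and 5 lower with PI103, 6 and 5 with PD0325901 and 5 and 4 with oxozeaenol. The shares of all genes are those given beside the sensing genes. TXNRD1, thioredoxin reductase, fell with all 3 (-1.17, -1.31 and -0.76), GCLM, a subunit of the enzyme that starts glutathione synthesis, with oxozeaenol (-0.40) and SRXN1 with PD0325901 (-0.52). Mean GCLM was 66.9 CPM in control, 47.5 with PI103, 51.6 with PD0325901 and 50.7 with oxozeaenol. Mean SRXN1 was 76.9 CPM in control, 53.65 with PI103, 53.7 with PD0325901 and 66.7 with oxozeaenol. HMOX1, haem oxygenase, fell with PI103 (-0.64) but rose with PD0325901 (1.91) and oxozeaenol (0.54), NQO1 rose with PD0325901 (0.59) and oxozeaenol (0.54), and GPX4, which removes lipid peroxides, rose with PI103 (0.27), a call lost without control replicate 3 (0.19, adjusted p = 0.0593).

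**Figure D5:**
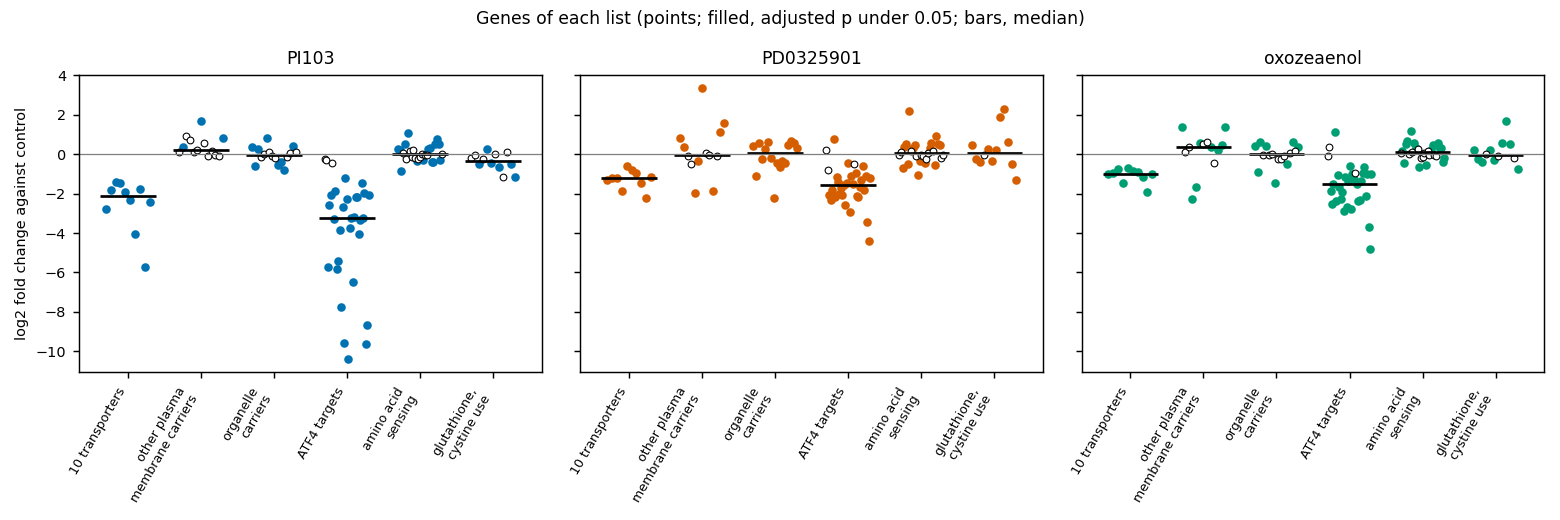
Log2 fold change against control of each tested gene (points; filled, adjusted p under 0.05; bars, median of the list) in 6 lists for the 3 single agents. All 10 transporters lie below 0 (medians -2.12, -1.21 and -0.98). The medians of the ATF4 targets do too (-3.21, -1.56 and -1.49), though CBS of that list rose with PD0325901 (0.78) and oxozeaenol (1.10). The medians of the other 4 lists lie between -0.34 and 0.38.

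The genes whose pattern over the 24 libraries was most like each member were found by the root mean square difference of centred log2 CPM, among 10031 genes. For SLC1A5 it was SHMT2, the mitochondrial serine hydroxymethyltransferase (0.11 log2 units, where the SD of SLC1A5 itself was 0.84), then XPOT, an exporter of tRNA, and MARS, the methionyl-tRNA synthetase (0.17 and 0.18). SLC7A5 was nearest to XPOT, MARS and TIMM44 (0.20 to 0.23). SLC3A2 was nearest to WARS, the tryptophanyl-tRNA synthetase (0.14), GRB10 (0.18) and PYCR1, an enzyme of proline synthesis (0.19). WARS was at 402 ± 32.9 CPM (SD, n = 4) in control and 96.4 ± 7.07 with PI103. SLC7A11 was nearest to ASNS, asparagine synthetase (0.36, where its own SD was 2.31), CHAC1, which degrades glutathione (0.46), and CTH, which makes cysteine (0.61). ASNS was at 1499 ± 331 CPM in control, 28.0 ± 4.18 with PI103 and 36.0 ± 4.26 with PI103 and PD0325901, and reached 189 CPM in 1 library of PI103 with oxozeaenol whose median was 52.2. SLC1A4 was nearest to YARS, EIF4EBP1 and MTHFD2 (0.23 to 0.27), SLC43A1 to YARS, GARS and CARS, all tRNA synthetases (0.27 to 0.31), and SLC6A9, less closely, to PSPH, PCK2 and ASS1 (0.48 to 0.56). The other 3 members had different neighbours: SLC38A1 was nearest to TXNRD1, SPAG1 and SLC25A32 (0.16 to 0.19), SLC38A2 to DDX21, RIOK1 and PYROXD1 (0.19 to 0.23), and SLC7A1 to MAK16, EIF1 and HSPA9 (0.19 to 0.20). Among the members themselves SLC7A1 and SLC38A1 were the closest of 45 pairs (0.20) and SLC7A11 and SLC38A1 the farthest apart (1.79). These likenesses describe libraries that share treatments and carry no test.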

How the data were processed

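The authors deposited whole-number read counts per gene symbol for 24 libraries, made per the labels' protocols with a stranded mRNA kit from total RNA. The build was GRCh38 per the submitters' processing notes, and the aligner, counter and annotation are not given in the sources used here. Groups came from sample titles, since the treatment field numbers the compound names upward in later replicates. The 5 closing tallies of unassigned reads (10.7% to 16.5% of reads per library) were left out. The columns were mapped by library name, and no 2 libraries held identical counts.

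Genes were kept by edgeR's filterByExpr (13947 of 23368, 3199 having 0 counts throughout). Counts were scaled by TMM (factors 0.926 to 1.07) then modelled by robust edgeR (version 4.0.16, R 4.3.3) as 6 group means over all 24 libraries (common biological coefficient of variation 0.131). Each of 14 contrasts used the two-sided quasi-likelihood F test with Benjamini-Hochberg adjustment over all genes kept, and calls are at 0.05. This test gave every adjusted p unless another is named. SE is the log2 fold change over the root of the F statistic, and intervals are at 95%. CPM use TMM-scaled library sizes, and log2 CPM a prior count of 2. The scripts were tested on simulated data.

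Replicate numbers appear as batches in the labels and so pair the samples. Deviations from group means had a mean correlation of 0.12 over 60 same-number pairs, 28 of them over 0.1, and of -0.0394 over 180 other pairs. What a batch shared is not given in the labels. The block is an alternative, beside DESeq2 1.42.0, other scalings, no filter, only the groups compared, and each library left out. P-values measure the spread between the labelled replicates.

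Named genes were the 10 members, ATF4, MYC and NFE2L2, the 2 largest rises and falls per single agent among called genes of each other list (minimum mean 1 CPM) and the 3 genes nearest to each member (minimum mean 5 CPM). The combinations' values of SLC7A8, the PI103 value of SLC7A7 and means with agents not named with a gene were added after they were seen. The members and lists were chosen with earlier results of these data known.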

Additional observations from a re-analysis of the deposited data

Results flagged for a closer look

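Within groups of 4 libraries, 10 of 60 gene and group combinations had a library beyond Dixon's 95% critical value. The measure was its gap to its nearest neighbour over the range of the group. Chance alone gives about 5% of independent combinations. These were not independent, as members moved together within libraries, so an excess over chance cannot be read from this count. In replicate 2 of PI103 with oxozeaenol 5 genes stood above the other 3 libraries: SLC7A11 at 51.3 CPM, SLC7A5 at 388 CPM, SLC1A5 at 458 CPM, SLC38A1 at 263 CPM and SLC6A9 at 20.6 CPM. In that library all 10 transporters lay above their group mean, and the report gives the results that rest on it without it as well. SLC7A11 stood high in replicate 1 of PD0325901, at 131 CPM, and SLC6A9 in replicate 2 of PI103, at 5.55 CPM. Standing low were SLC1A4 in control replicate 1 (71.99 CPM), SLC38A2 in replicate 2 of PI103 with PD0325901 (113 CPM) and SLC43A1 in replicate 1 of PI103 (1.15 CPM). The causes of these deviations were not tested.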

How the results depend on the processing

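All 10 members stayed called lower against control in each of the 5 treatments under every alternative run: RLE scaling, library sizes only, no low-count filter, the replicate block, DESeq2, only the groups compared, and each library left out (10 to 10 members called). Among the members the replicate block changed 2 calls, SLC7A11 for PI103 with oxozeaenol against PI103 (1.24, adjusted p = 0.0506, call lost) and SLC38A1 for the same combination against oxozeaenol (-0.31, adjusted p = 0.0365, call gained), and no other. PD0325901 against oxozeaenol, with 2 members called, gave 1 with library sizes only, with no low-count filter and with only the groups compared, and 1 to 3 when a library was left out; the cause was not tested. PI103 with oxozeaenol against the mean of its agents gave 0 to 1 members when a library was left out. Fits with only the groups compared lost, for PI103 with oxozeaenol, SLC7A11 against PI103 (1.46, adjusted p = 0.179) and against oxozeaenol (-2.32, adjusted p = 0.0851), and gained SLC7A1 against PI103 (0.29, adjusted p = 0.00469) and SLC38A1 against oxozeaenol (-0.32, adjusted p = 0.0468), the latter also with DESeq2 (-0.31, adjusted p = 0.0384). With no low-count filter SLC7A11 in that combination against PI103 was lost (1.45, adjusted p = 0.0664). With library sizes only SLC7A1 (-0.31, adjusted p = 0.0854) and SLC38A1 (-0.23, adjusted p = 0.115) were lost for PI103 with PD0325901 against PI103. Near 0, the sign turned when a library was left out for SLC38A2 in PI103 against oxozeaenol (-0.055 to 0.15), SLC1A5 in PI103 with oxozeaenol against PI103 (-0.025 to 0.21), the log2 ratio of SLC1A4 to SLC1A5 with oxozeaenol (-0.12 to 0.031) and that of SLC38A2 to SLC38A1 with PI103 (-0.12 to 0.040). Over all genes, with only the groups compared, calls went from 3976 to 2348 for PD0325901 against oxozeaenol, from 2553 to 4088 for PI103 with oxozeaenol against PI103, from 2521 to 1222 for PI103 with PD0325901 against PD0325901 and from 555 to 887 for PI103 with oxozeaenol against the mean, which gave 997 with the replicate block. Scaling by library sizes only moved the median log2 fold change of all genes for PI103 with PD0325901 from 0.01 to 0.13 and the share of higher calls from 49.6% to 59.9%. Depth was lowest for SLC43A1, with as few as 65 counts in a library, then SLC6A9 (217) and SLC7A11 (279); each other member had at least 502.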
